A study of Mus musculus with 36 samples.

Results

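Ribosome biogenesis factors are the proteins that transcribe, modify, cut and fold ribosomal RNA and assemble it with ribosomal proteins. A list of 55 such genes was followed in mouse T cells through all array probes that carry 1 of their symbols, and 41 of the 55 could be measured, out of 7585 genes tested in all. The array named 71 probes for the list. No probe was named for 8 members (Polr1b, Rrn3, Npm3, Wdr43, Utp18, Utp20, Ddx10 and Noc2l). A further 6 members (Dkc1, Mphosph10, Bysl, Nop16, Wdr12 and Ddx56) had a probe that was not detected on enough arrays to be tested. No expression result is therefore given for these 14 below. A member was measured where a probe had a detection p-value under 0.01 on at least 4 of the 36 arrays, and its brightest probe was then used.

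The study set 3 Malt1 genotypes beside each other at 0, 1 and 4 h of stimulation, with 4 Illumina bead arrays in each of the 9 groups. The genotypes were Malt1PM/- (PM, a point-mutant allele over a null allele), Malt1-/- (KO, no intact allele) and Malt1+/- (het, an intact allele over a null allele), so that every group carried at least 1 null allele and no group was wild type. All samples were labelled B6.C-Tg(CMV-cre)1Cgn/J, a line that carries Cre under a broadly active viral promoter. The 0 h cells were not stimulated, and the labels describe both PMA with ionomycin and plate-bound antibodies to CD3 and CD28 without saying which was used here, nor whether total or CD4+ T cells were loaded. The study's design text speaks of 3 biological replicates where the labels give 4. Age and sex of the mice were not given in the sources used here, and the labels do not say that the 4 replicates of a group came from separate mice, so p-values measure the spread between these samples, which may be technical.

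Ribosomes are built mainly in the nucleolus, where RNA polymerase I transcribes the ribosomal DNA into a long precursor. Small nucleolar ribonucleoproteins (snoRNPs) guide its modification, with box C/D particles directing ribose methylation and box H/ACA particles directing pseudouridylation, while a large set of helicases, GTPases, nucleases and scaffold proteins cuts and folds the parts of the small and the large subunit. Resting T cells are small and make few ribosomes, and ribosome production is known to increase when they are activated and prepare to divide. Malt1 is a scaffold and protease that links the antigen receptor to NF-kB.

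The promoters of the 4 members with the largest 4 h rise in het cells are shown because the list moved together in what follows. The windows run from 250 bases before to 50 bases after the gene start in the sense direction (RefSeq, GRCm38.p6), and capitals mark the E-box CACGTG, the palindromic core bound by Myc and related factors, which was searched on both strands. The Rrp1b window, the first of 2 in the table, lies at chr17:32035912-32036211, plus strand, Mrto4 at chr4:139352527-139352826, minus strand, Ncl at chr1:86359406-86359705, minus strand and Pes1 at chr11:3963725-3964024, plus strand.
Rrp1b: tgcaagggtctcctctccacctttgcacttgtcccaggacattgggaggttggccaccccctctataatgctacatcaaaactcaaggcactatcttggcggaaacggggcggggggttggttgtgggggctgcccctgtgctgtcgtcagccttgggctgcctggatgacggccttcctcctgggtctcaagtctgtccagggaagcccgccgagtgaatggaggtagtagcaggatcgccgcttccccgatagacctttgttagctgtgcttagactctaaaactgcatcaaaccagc
Mrto4: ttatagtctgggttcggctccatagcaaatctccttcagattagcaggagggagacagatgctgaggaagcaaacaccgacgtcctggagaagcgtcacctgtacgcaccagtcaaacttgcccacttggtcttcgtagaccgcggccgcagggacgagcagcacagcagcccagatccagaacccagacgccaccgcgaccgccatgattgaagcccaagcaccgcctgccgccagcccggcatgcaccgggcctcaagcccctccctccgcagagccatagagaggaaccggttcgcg
Ncl: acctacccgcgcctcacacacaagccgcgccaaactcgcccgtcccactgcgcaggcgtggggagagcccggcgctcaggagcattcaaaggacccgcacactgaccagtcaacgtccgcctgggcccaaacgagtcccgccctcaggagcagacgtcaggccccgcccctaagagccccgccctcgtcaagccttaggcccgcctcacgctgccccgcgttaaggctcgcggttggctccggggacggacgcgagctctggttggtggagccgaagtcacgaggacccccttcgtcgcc
Pes1: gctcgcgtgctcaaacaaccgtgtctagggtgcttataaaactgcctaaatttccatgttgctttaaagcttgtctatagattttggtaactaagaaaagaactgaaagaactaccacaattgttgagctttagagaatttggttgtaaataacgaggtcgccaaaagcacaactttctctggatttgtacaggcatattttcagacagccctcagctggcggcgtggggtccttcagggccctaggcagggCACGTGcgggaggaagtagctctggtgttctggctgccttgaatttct
Only the Pes1 window of these 4 held the letters CACGTG, starting 3 bases after the gene start. RefSeq windows matched 35 of the 41 measured members, and 5 of them (Pes1, Nop2, Ltv1, Tsr1 and Imp4) held the motif, a share of 14.3%. The share was 12.5% over the genes tested that had a window and 8.09% over all genes with a window. It was 18.4% over all list members with a window, measured or not, 23.8% over the other ribosome biogenesis genes and 10.6% over the ribosomal protein genes. The median 4 h change in het cells was 1.75 (log2) for the 5 members with the motif and 1.78 for the 30 without it. A match describes the letters of the window only.

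Arrays detected 7713 to 10291 probes each, and precision is limited by how many arrays there are. Malt1 itself was lower in KO than in het cells at every time: PM arrays read 4.88, 5.06, 5.17 and 5.74 at 0 h, KO arrays 5.09, 4.84, 4.84 and 4.39 and het arrays 5.79, 5.78, 6.48 and 6.27. At 1 h PM arrays read 5.29, 5.296, 5.68 and 6.19, KO arrays 4.74, 4.78, 4.71 and 4.42 and het arrays 6.71, 6.201, 6.98 and 7.1003, and at 4 h 5.796, 6.104, 6.55 and 5.93, 5.49, 6.24, 5.7002 and 5.84 and 6.96, 7.56, 7.43 and 7.21 (all log2 signal). The KO minus het difference was -1.29, -2.08 and -1.47 at 0, 1 and 4 h (limma, adjusted p = 0.00725, 1.55e-06 and 3.55e-05), and the probe was detected on all 4 KO arrays at 4 h. PM minus het was -0.86, -1.13 and -1.20 (adjusted p = 0.191, 0.0184 and 0.00136). Where this probe lies relative to the deleted part of the gene was not given in the sources used here. The labels describe removal of B220+ and CD11b+ cells for total T cells. Of the T cell markers, Cd3d, Cd3e, Cd3g, Thy1, Cd5 and Cd28 were detected on all 36 arrays and Cd4 on 30, while the Cd8a probe was detected on 0 arrays and Cd8b1 on 36. The B cell genes Cd79a and Cd79b and the myeloid genes S100a8 and S100a9 were also detected on all 36 arrays, as were Klrd1 and Nkg7 of the natural killer cell list. In contrast, Pax5, Itgam, Ncr1 and Klrb1c were detected on 0. Of the other B cell genes, Fcrla and Fcer2a were detected on 36 arrays, Blk on 35, Cd22 on 25, Ms4a1 on 13 and Cr2 on 2. Of the other myeloid and dendritic cell genes, Cst3 and Fcer1g were detected on 36, Lyz2 on 34, Tyrobp on 20, Cd14 on 17, Fcgr3 on 12, Adgre1 on 3 and Itgax on 0. The erythroid genes Hba-a1, Car2, Epor and Alas2 were detected on 31, 6, 2 and 0. The rest of the natural killer cell list was Klrk1 and Gzma, detected on 0 arrays, and Eomes, on 2. Which cells the Klrd1 and Nkg7 signal came from was not tested.

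At 4 h nearly the whole list was higher than at 0 h, in every genotype. In PM cells 37 of 41 members rose and 0 fell, in KO cells 37 rose and 1 fell, and in het cells 37 rose and 0 fell (limma moderated test, adjusted p under 0.05 over all genes). Over all genes tested, 24% rose in PM, 22.2% in KO and 26.9% in het cells, and 27.1%, 24% and 28.3% fell. The median change of the members was 1.59 in PM, 1.38 in KO and 1.76 in het cells (log2), against all-gene medians of -0.022, -0.0083 and -0.0025. At least 2-fold rises numbered 33 in PM, 30 in KO and 32 in het cells, where 9.8%, 8.31% and 12.1% of all genes rose as much. Of the 41, Nolc1 and Rrs1 were detected on no array at 0 h, and of the other 39 members 36 rose in PM, 35 in KO and 35 in het cells. The same 36 members rose in all 3 genotypes, and the remaining 5 (Ubtf, Nolc1, Nop56, Nop10 and Emg1) are described with their roles.

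The rise was seen on every array when the 41 members were averaged. The mean log2 signal of the list read 9.41, 9.48, 9.74 and 9.55 in PM cells at 4 h, against 8.05, 8.204, 8.004 and 8.11 at 0 h. KO cells read 9.33, 9.297, 9.37 and 9.54 at 4 h, against 8.06, 8.13, 8.09 and 8.04 at 0 h. Het cells read 9.598, 9.72, 9.71 and 9.796 at 4 h, against 8.04, 8.05, 8.04 and 8.02 at 0 h. All 12 arrays at 4 h thus stood above all 12 arrays at 0 h. In the same fit, 81, 77 and 83 of 99 other ribosome biogenesis genes rose in PM, KO and het cells at 4 h and 1, 0 and 0 fell, with medians of 0.98, 0.80 and 1.05. Of 55 cytosolic ribosomal protein genes, which encode the parts these factors assemble, 2 rose and 6 fell in PM, 3 rose and 8 fell in KO, and 2 rose and 13 fell in het cells. Their medians were -0.15, -0.077 and -0.16. Most ribosomal protein genes thus did not pass at 4 h, while most biogenesis genes of both lists rose.

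**Figure D1:**
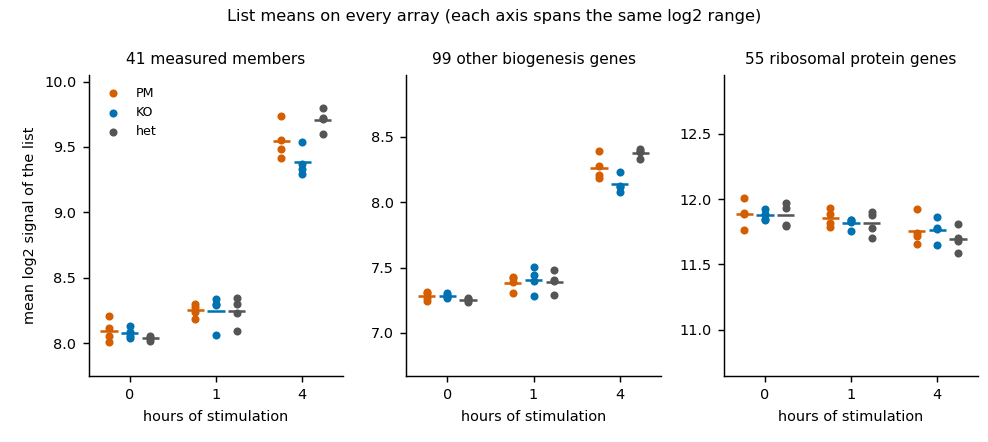
Mean log2 signal of 41 members (left), 99 other ribosome biogenesis genes (middle) and 55 cytosolic ribosomal protein genes (right) on every array at 0, 1 and 4 h, with PM, KO and het cells side by side; points are arrays and bars are group means. The members lie between 9.297 and 9.796 at 4 h, above all arrays at 0 h, and the ribosomal protein genes stay within a narrow band.

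Other cell types' markers moved over the same hours, and their part in the 4 h result was not tested. Of 8 measured myeloid and dendritic cell markers, 7 fell at 4 h in each genotype. The mean log2 signal of that list was 5.49 to 6.31 in PM cells at 4 h against 6.99 to 7.69 at 0 h, 5.71 to 6.55 in KO cells against 7.63 to 8.07, and 5.68 to 6.44 in het cells against 7.697 to 7.92. Of 7 measured B cell markers, 4 fell in PM, 5 in KO and 4 in het cells. Their mean was 5.22 to 6.26 in PM cells at 4 h against 6.41 to 7.996 at 0 h, 4.995 to 6.397 in KO cells against 6.21 to 7.58, and 5.15 to 6.23 in het cells against 6.61 to 8.14. Of 2 measured natural killer cell markers (Klrd1 and Nkg7) 1 fell in PM, 2 in KO and 1 in het cells. Their mean was 5.88 to 7.26 in PM cells at 4 h against 7.58 to 8.798 at 0 h, 6.32 to 7.09 in KO cells against 7.61 to 8.04, and 5.89 to 6.82 in het cells against 7.79 to 8.52. Of 9 measured T cell markers 6 fell in each genotype. Of 6 measured housekeeping genes 1 rose in PM, 2 in KO and 1 in het cells and 0 fell. In bulk samples fewer cells of a type and less RNA per cell cannot be told apart.

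**Figure D2:**
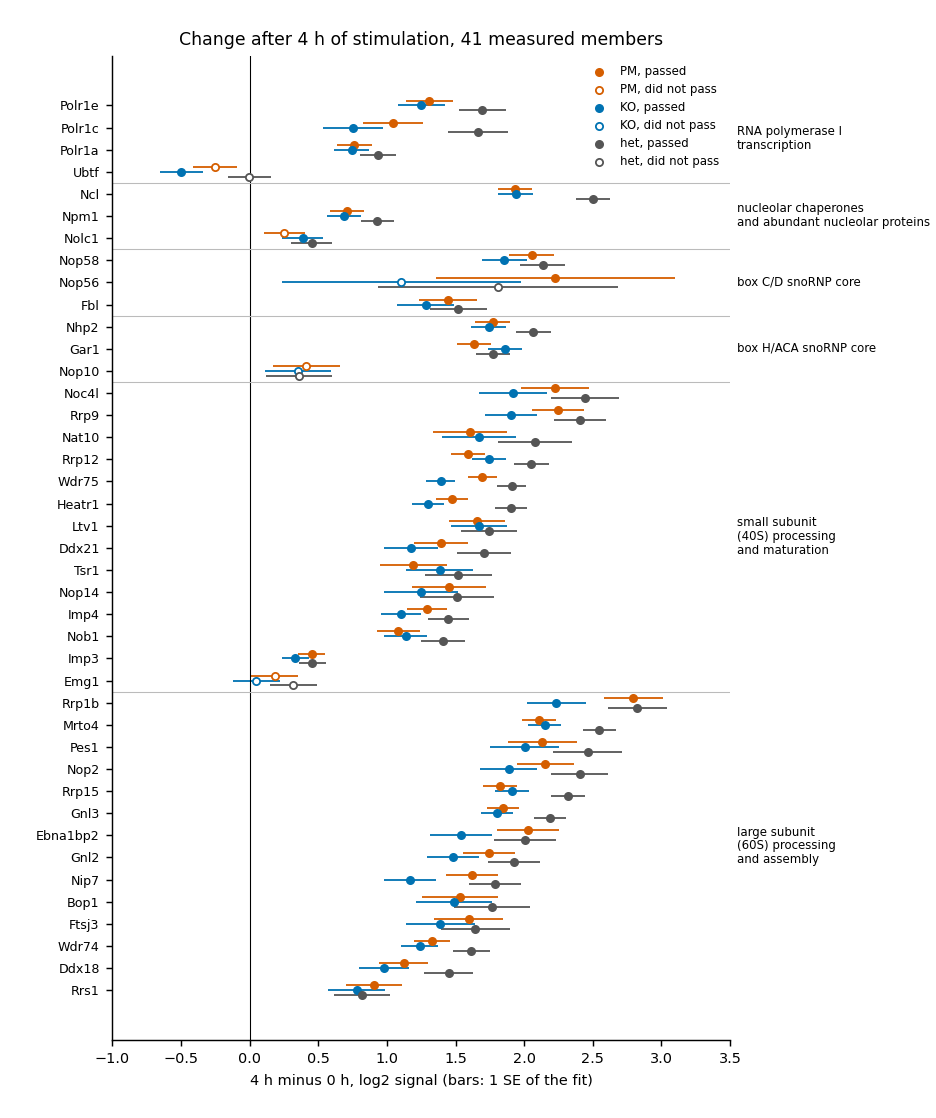
Change of each measured member after 4 h (4 h minus 0 h, log2 signal) by role, for PM, KO and het cells from top to bottom within a row; bars are 1 SE of the fit and filled points passed at an adjusted p under 0.05. Most members lie between 1 and 3 in every genotype, Ubtf lies at or below 0, and Nop56 has the widest bars.

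The RNA polymerase I machinery split into its subunits, which rose in every genotype, and its DNA-binding factor Ubtf, which rose in none. Of 4 measured members of this role 3 rose in PM, 3 in KO and 3 in het cells, with median changes of 0.90, 0.75 and 1.30. Polr1e is a subunit of the polymerase. PM arrays of Polr1e read 7.91, 7.704, 7.74 and 8.39 at 0 h, 7.52, 7.55, 7.64 and 8.14 at 1 h and 9.14, 9.09, 9.14 and 9.61 at 4 h. KO arrays of Polr1e read 7.91, 7.83, 8.08 and 8.15 at 0 h, 7.53, 7.68, 7.81 and 8.18 at 1 h and 8.85, 9.18, 9.302 and 9.63 at 4 h. Het arrays of Polr1e read 7.76, 7.86, 7.81 and 7.93 at 0 h, 7.61, 7.401, 7.64 and 7.84 at 1 h and 9.598, 9.3002, 9.53 and 9.71 at 4 h. All 4 h arrays of a genotype stood above its 0 h arrays, and the 1 h arrays overlapped the 0 h arrays. Changes of Polr1e at 4 h were 1.31 in PM, 1.25 in KO and 1.696 in het cells (SE 0.17 each, adjusted p = 1.03e-07, 3.1e-07 and 4.16e-10).

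Polr1c is a subunit that RNA polymerase I shares with RNA polymerase III. PM arrays of Polr1c read 6.102, 7.13, 6.501 and 6.93 at 0 h, 6.43, 7.31, 7.49 and 7.55 at 1 h and 7.36, 7.66, 7.91 and 7.91 at 4 h. KO arrays of Polr1c read 6.43, 7.13, 6.34 and 6.84 at 0 h, 6.91, 6.803, 7.05 and 7.099 at 1 h and 7.42, 7.21, 7.504 and 7.601 at 4 h. Het arrays of Polr1c read 6.96, 6.83, 6.71 and 6.602 at 0 h, 7.71, 7.22, 7.25 and 7.099 at 1 h and 8.12, 8.84, 8.44 and 8.36 at 4 h. The 4 h arrays were all above the 0 h arrays of their genotype, and the 4 het arrays at 4 h lay above all PM and KO arrays at that time. Changes of Polr1c at 4 h were 1.04 in PM, 0.75 in KO and 1.67 in het cells (SE 0.22 each, adjusted p = 0.000163, 0.00531 and 8.94e-08). Under median scaling the change was 0.91 in PM and 0.56 in KO cells and did not pass (adjusted p = 0.112 and 0.404), nor did it pass in KO cells without replicate 3 (adjusted p = 0.0963). Polr1a, the largest and catalytic subunit, rose by 0.76 in PM, 0.74 in KO and 0.93 in het cells. A second Polr1a probe rose by 0.89, 0.80 and 1.09. A further, dim probe was detected on 0 PM, 2 KO and 1 het arrays at 0 h, and it passed in PM cells only (at least 1.33-fold higher, adjusted p = 0.00263, against 0.128 in KO and 0.312 in het cells).

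Ubtf is an HMG-box protein that binds ribosomal DNA and keeps it open for transcription. PM arrays of Ubtf read 8.84, 8.603, 8.86 and 8.91 at 0 h, 8.43, 8.31, 8.69 and 8.49 at 1 h and 8.497, 8.11, 8.79 and 8.81 at 4 h. KO arrays of Ubtf read 8.96, 8.59, 9.0003 and 8.83 at 0 h, 8.41, 8.64, 8.62 and 8.62 at 1 h and 8.15, 8.06, 8.74 and 8.44 at 4 h. Het arrays of Ubtf read 8.88, 8.6997, 9.01 and 8.7999 at 0 h, 8.28, 8.43, 8.49 and 8.28 at 1 h and 8.999, 8.36, 9.11 and 8.91 at 4 h. The 4 h and 0 h arrays overlapped in each genotype. Ubtf fell in KO cells by 0.50 at 4 h (SE 0.16, adjusted p = 0.0101). That call was lost under median scaling (-0.58, adjusted p = 0.186), without the KO 4 h array of replicate 2 (adjusted p = 0.0521) and without replicate 1 in both groups (adjusted p = 0.138). Its change did not pass in PM (-0.25, adjusted p = 0.19) or het cells (-0.00074, adjusted p = 0.997).

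The abundant nucleolar proteins ranged from a large rise of nucleolin to a signal near background for Nolc1. Nucleolin (Ncl) is an RNA-binding protein that acts on the early precursor. PM arrays of Ncl read 8.04, 8.06, 7.86 and 8.37 at 0 h, 8.41, 8.03, 8.15 and 8.11 at 1 h and 9.72, 10.03, 10.24 and 10.06 at 4 h. KO arrays of Ncl read 8.02, 7.98, 7.76 and 7.58 at 0 h, 8.198, 7.86, 7.88 and 7.92 at 1 h and 9.77, 9.74, 9.74 and 9.85 at 4 h. Het arrays of Ncl read 7.66, 7.91, 7.78 and 7.79 at 0 h, 8.08, 8.03, 8.07 and 8.32 at 1 h and 10.098, 10.35, 10.23 and 10.46 at 4 h. At 4 h every array was above every 0 h and 1 h array of its genotype. Changes of Ncl at 4 h were 1.93 in PM, 1.94 in KO and 2.5 in het cells (SE 0.13 each, adjusted p = 4.58e-14, 5.57e-14 and 7.64e-17), which are 3.82-fold, 3.83-fold and 5.66-fold. Nucleophosmin (Npm1), a nucleolar chaperone, rose by 0.71 in PM, 0.69 in KO and 0.93 in het cells.

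Nolc1, a chaperone of snoRNPs, was hardly measured. PM arrays of Nolc1 read 4.26, 4.47, 4.48 and 4.198 at 0 h, 4.24, 4.505, 4.17 and 4.41 at 1 h and 4.32, 4.92, 4.66 and 4.51 at 4 h. KO arrays of Nolc1 read 4.52, 4.39, 4.28 and 4.23 at 0 h, 4.51, 4.303, 4.59 and 4.69 at 1 h and 4.82, 4.39, 5.24 and 4.52 at 4 h. Het arrays of Nolc1 read 4.17, 4.48, 4.26 and 4.28 at 0 h, 4.28, 4.65, 4.299 and 4.23 at 1 h and 4.58, 5.04, 4.69 and 4.69 at 4 h. Its probe was detected on 0 of the 12 arrays at 0 h and, at 4 h, on 1 PM, 2 KO and 1 het arrays, so it was tested only because of stimulated arrays. It was not well above background and no fold is given. It passed as higher in KO and het cells (adjusted p = 0.0362 and 0.0116) but not in PM cells (adjusted p = 0.168). The KO call was lost under 13 of 19 alternatives and the het call under 3, and in the authors' processed table it passed in neither (adjusted p = 0.139 and 0.824).

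The core of the box C/D snoRNPs is formed by the methyltransferase fibrillarin (Fbl) and the scaffold proteins Nop56 and Nop58, and Nop58 climbed at each step. PM arrays of Nop58 read 8.48, 8.62, 8.85 and 8.102 at 0 h, 9.61, 9.43, 9.27 and 9.15 at 1 h and 10.37, 10.53, 10.96 and 10.41 at 4 h. KO arrays of Nop58 read 8.38, 8.68, 8.57 and 8.39 at 0 h, 9.48, 9.08, 9.33 and 9.12 at 1 h and 10.49, 10.31, 10.37 and 10.29 at 4 h. Het arrays of Nop58 read 8.52, 8.83, 8.402 and 8.65 at 0 h, 9.23, 9.41, 9.26 and 9.94 at 1 h and 11.002, 10.68, 10.396 and 10.85 at 4 h. The 3 time points did not overlap in any genotype. Changes of Nop58 at 4 h were 2.05 in PM, 1.86 in KO and 2.13 in het cells (SE 0.17 each, adjusted p = 5.77e-12, 7.07e-11 and 1.45e-12).

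Fbl places the methyl group. PM arrays of Fbl read 11.14, 10.81, 11.09 and 11.24 at 0 h, 11.05, 10.81, 11.45 and 11.29 at 1 h and 12.76, 12.03, 12.58 and 12.697 at 4 h. KO arrays of Fbl read 11.17, 10.64, 11.13 and 11.24 at 0 h, 11.17, 10.99, 11.43 and 11.4 at 1 h and 12.04, 11.997, 12.84 and 12.44 at 4 h. Het arrays of Fbl read 11.08, 10.703, 11.196 and 11.44 at 0 h, 11.09, 10.91, 11.38 and 11.58 at 1 h and 12.68, 12.08, 12.73 and 13.01 at 4 h. Its 1 h arrays overlapped the 0 h arrays, and the 4 h arrays stood above both in each genotype. Changes of Fbl at 4 h were 1.44 in PM, 1.28 in KO and 1.52 in het cells (SE 0.21 each, adjusted p = 7.38e-07, 6.62e-06 and 2.33e-07).

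Nop56 had the widest spread between replicates of all measured members. PM arrays of Nop56 read 8.74, 8.56, 7.98 and 4.21 at 0 h, 9.44, 8.99, 8.36 and 5.07 at 1 h and 10.37, 10.29, 10.15 and 7.59 at 4 h. KO arrays of Nop56 read 8.16, 8.46, 8.05 and 7.26 at 0 h, 9.19, 8.93, 8.49 and 5.67 at 1 h and 9.67, 10.05, 9.27 and 7.38 at 4 h. Het arrays of Nop56 read 8.59, 8.53, 7.92 and 7.95 at 0 h, 9.37, 8.87, 8.58 and 7.71 at 1 h and 10.39, 10.58, 10.39 and 8.86 at 4 h. Replicate 4 was the lowest array in 8 of the 9 groups and lay on average 1.70 below its group means, while the next lowest replicate 4 average of any member was -0.19, for Nop10. Changes of Nop56 at 4 h were 2.23 in PM, 1.11 in KO and 1.81 in het cells (SE 0.87 each, adjusted p = 0.0326, 0.323 and 0.0791). With the replicate number as a block the change passed in KO and het cells too (adjusted p = 0.0332 and 0.000624). The PM call was lost under 11 of 20 alternatives, among them median scaling (adjusted p = 0.158), the authors' processed table (0.063), no filter on dim probes (0.0834) and a fit of only the arrays compared (0.0924). Without the PM 0 h array of replicate 4 the PM change was 1.17 and did not pass (adjusted p = 0.242). Without replicate 4 in both groups the changes were 1.84 in PM, 1.43 in KO and 2.11 in het cells, and all passed (adjusted p = 3.68e-06, 0.000113 and 4.02e-07). The array held 1 probe for this gene, so no second probe could be set beside it.

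The box H/ACA core consists of small proteins around a pseudouridine synthase and is also part of telomerase, and Nhp2 and Gar1 of this core rose at 4 h. PM arrays of Nhp2 read 9.66, 9.72, 9.38 and 9.37 at 0 h, 9.51, 9.27, 9.04 and 9.01 at 1 h and 11.06, 11.37, 11.51 and 11.28 at 4 h. KO arrays of Nhp2 read 9.55, 9.59, 9.498 and 9.35 at 0 h, 9.32, 9.07, 9.02 and 8.96 at 1 h and 11.29, 11.33, 11.08 and 11.27 at 4 h. Het arrays of Nhp2 read 9.59, 9.67, 9.495 and 9.33 at 0 h, 9.35, 8.93, 9.25 and 9.18 at 1 h and 11.66, 11.74, 11.57 and 11.39 at 4 h. In each genotype the 4 h arrays lay above the 0 h and 1 h arrays. Changes of Nhp2 at 4 h were 1.77 in PM, 1.74 in KO and 2.07 in het cells (SE 0.13 each, adjusted p = 4.67e-13, 8.55e-13 and 6.58e-15). Gar1 rose by 1.63 in PM, 1.86 in KO and 1.77 in het cells, and it alone of the 41 members had a larger change in KO than in het cells, a difference of 0.09 that did not pass (adjusted p = 0.955).

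Nop10, the third measured protein of that core, did not pass at 4 h as fitted. PM arrays of Nop10 read 10.55, 11.27, 10.501 and 10.53 at 0 h, 9.87, 10.47, 10.15 and 9.95 at 1 h and 10.96, 11.49, 11.24 and 10.82 at 4 h. KO arrays of Nop10 read 10.61, 11.36, 10.41 and 10.22 at 0 h, 10.25, 10.31, 9.83 and 10.13 at 1 h and 11.41, 10.902, 10.55 and 11.16 at 4 h. Het arrays of Nop10 read 10.77, 11.14, 10.46 and 10.42 at 0 h, 10.11, 10.4, 9.79 and 9.86 at 1 h and 10.803, 11.75, 10.99 and 10.71 at 4 h. In every genotype the 4 h arrays overlapped the 0 h arrays and stood above the 1 h arrays. Changes of Nop10 at 4 h were 0.41 in PM, 0.35 in KO and 0.36 in het cells (SE 0.24 each, adjusted p = 0.16, 0.248 and 0.214). Without the 0 h array of replicate 2 it passed in PM (0.599, adjusted p = 0.0478) and in KO cells (0.59, adjusted p = 0.0464), and the same held without replicate 2 in both groups (adjusted p = 0.0355 and 0.00835). With the replicate number as a block it passed in PM cells (adjusted p = 0.0326). A dimmer Nop10 probe was detected on 2 PM, 2 KO and 0 het arrays at 0 h. It changed by 0.76 in PM and 0.46 in KO cells (adjusted p = 0.00139 and 0.0543 over all probes) and was at least 1.69-fold higher in het cells (adjusted p = 3.18e-05). With the mean of both probes Nop10 passed in PM and het cells (0.59 and 0.69, adjusted p = 0.00492 and 0.000929).

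Small subunit factors act in the processome, the large particle that forms on the precursor as it is made, and in the later steps that finish the subunit. Of 14 measured, 13 rose in PM, 13 in KO and 13 in het cells, with median changes of 1.46, 1.34 and 1.73. Noc4l, a processome protein, had the largest change of the role in het cells. PM arrays of Noc4l read 7.26, 7.28, 7.44 and 7.55 at 0 h, 7.69, 7.17, 8.04 and 7.805 at 1 h and 9.63, 9.24, 9.59 and 9.98 at 4 h. KO arrays of Noc4l read 7.53, 6.94, 7.43 and 7.66 at 0 h, 7.66, 7.103, 7.96 and 7.895 at 1 h and 8.93, 8.91, 9.66 and 9.73 at 4 h. Het arrays of Noc4l read 7.46, 7.05, 7.27 and 7.897 at 0 h, 7.69, 6.87, 7.705 and 7.904 at 1 h and 9.895, 9.29, 9.95 and 10.32 at 4 h. The 4 h arrays stood above the 0 h and 1 h arrays in every genotype. Changes of Noc4l at 4 h were 2.22 in PM, 1.92 in KO and 2.44 in het cells (SE 0.25 each, adjusted p = 5.84e-09, 1.3e-07 and 5.69e-10).

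Heatr1 and Wdr75 belong to an early processome complex that, in human cells, is also needed for RNA polymerase I transcription. PM arrays of Heatr1 read 10.74, 10.51, 10.44 and 10.71 at 0 h, 10.65, 10.54, 10.51 and 10.42 at 1 h and 12.26, 11.86, 12.19 and 11.99 at 4 h. KO arrays of Heatr1 read 10.59, 10.55, 10.46 and 10.48 at 0 h, 10.55, 10.56, 10.41 and 10.33 at 1 h and 11.68, 11.79, 12.04 and 11.76 at 4 h. Het arrays of Heatr1 read 10.36, 10.44, 10.42 and 10.61 at 0 h, 10.44, 10.25, 10.46 and 10.63 at 1 h and 12.51, 12.06, 12.39 and 12.49 at 4 h. At 1 h Heatr1 overlapped the 0 h arrays in each genotype, and at 4 h no array did. Changes of Heatr1 at 4 h were 1.48 in PM, 1.301 in KO and 1.904 in het cells (SE 0.12 each, adjusted p = 2.59e-12, 5.52e-11 and 4.11e-15). PM arrays of Wdr75 read 8.62, 8.58, 8.42 and 8.71 at 0 h, 8.93, 8.66, 8.56 and 8.69 at 1 h and 10.04, 10.4, 10.46 and 10.21 at 4 h. KO arrays of Wdr75 read 8.58, 8.77, 8.59 and 8.45 at 0 h, 8.5995, 8.49, 8.54 and 8.41 at 1 h and 9.95, 10.04, 9.93 and 10.04 at 4 h. Het arrays of Wdr75 read 8.38, 8.46, 8.58 and 8.42 at 0 h, 8.35, 8.34, 8.53 and 8.59 at 1 h and 10.45, 10.45, 10.33 and 10.25 at 4 h. Wdr75 followed the same course, with overlap at 1 h and none at 4 h. Changes of Wdr75 at 4 h were 1.69 in PM, 1.39 in KO and 1.91 in het cells (SE 0.10 each, adjusted p = 1.42e-14, 1.61e-12 and 4.59e-16).

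Other processome members rose as well. Rrp9, a protein bound to the snoRNA that directs the early cuts, changed by 2.25 in PM, 1.903 in KO and 2.41 in het cells. Imp4, which joins that snoRNA to the precursor, changed by 1.29 in PM, 1.104 in KO and 1.45 in het cells, and its partner Imp3 by only 0.45 in PM, 0.33 in KO and 0.46 in het cells. Both still passed in every genotype. Nop14 changed by 1.45 in PM, 1.25 in KO and 1.51 in het cells, the helicase Ddx21 by 1.39 in PM, 1.18 in KO and 1.71 in het cells, the RNA acetyltransferase Nat10 by 1.61 in PM, 1.67 in KO and 2.08 in het cells and Rrp12, an export and maturation factor in yeast, by 1.59 in PM, 1.74 in KO and 2.05 in het cells. Of the late factors, Ltv1 changed by 1.66 in PM, 1.67 in KO and 1.75 in het cells, Tsr1 by 1.19 in PM, 1.38 in KO and 1.52 in het cells and the endonuclease Nob1, which makes the final cut of the small subunit RNA, by 1.08 in PM, 1.14 in KO and 1.41 in het cells.

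Emg1, a methyltransferase of the small subunit RNA, was the exception. PM arrays of Emg1 read 8.73, 8.88, 8.58 and 8.31 at 0 h, 8.34, 8.68, 8.79 and 8.94 at 1 h and 8.61, 8.92, 9.16 and 8.54 at 4 h. KO arrays of Emg1 read 8.45, 8.93, 8.68 and 8.31 at 0 h, 8.79, 8.71, 8.53 and 8.62 at 1 h and 8.81, 8.77, 8.38 and 8.62 at 4 h. Het arrays of Emg1 read 8.48, 8.51, 8.54 and 8.16 at 0 h, 8.59, 8.48, 8.75 and 8.61 at 1 h and 8.19, 9.08, 8.79 and 8.91 at 4 h. The 3 time points overlapped in each genotype. Changes of Emg1 at 4 h were 0.18 in PM, 0.05 in KO and 0.32 in het cells (SE 0.17 each, adjusted p = 0.404, 0.851 and 0.118). Without the het 4 h array of replicate 1 the het change was 0.505 and passed (adjusted p = 0.0111), as it did without replicate 1 in both groups (0.52, adjusted p = 0.0208). A second probe for Emg1 changed by -0.025, 0.33 and 0.20 in PM, KO and het cells and did not pass either.

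All 14 measured large subunit factors passed as higher at 4 h in each genotype, Rrs1 among them only through its stimulated arrays, with median changes of 1.79 in PM, 1.51 in KO and 1.96 in het cells. Rrp1b, a nucleolar protein of the early large subunit particles, had the largest change of the whole list in each genotype. PM arrays of Rrp1b read 6.99, 6.802, 6.79 and 6.27 at 0 h, 7.003, 7.102, 6.98 and 7.33 at 1 h and 9.64, 9.61, 9.46 and 9.32 at 4 h. KO arrays of Rrp1b read 6.93, 6.56, 7.02 and 6.76 at 0 h, 6.97, 6.54, 7.23 and 6.78 at 1 h and 8.69, 8.93, 9.38 and 9.21 at 4 h. Het arrays of Rrp1b read 6.91, 6.66, 6.48 and 7.34 at 0 h, 6.57, 6.67, 6.48 and 7.32 at 1 h and 9.91, 9.24, 9.32 and 10.22 at 4 h. The 4 h arrays stood above the 0 h and 1 h arrays in every genotype. Changes of Rrp1b at 4 h were 2.79 in PM, 2.23 in KO and 2.82 in het cells (SE 0.21 each, adjusted p = 1.96e-12, 3.17e-10 and 8.62e-13), or 6.93-fold, 4.71-fold and 7.08-fold.

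Mrto4 is related to a protein of the ribosomal stalk and holds its place during assembly. PM arrays of Mrto4 read 7.702, 7.73, 7.45 and 7.86 at 0 h, 8.13, 7.83, 7.81 and 7.81 at 1 h and 9.51, 9.88, 9.88 and 9.8997 at 4 h. KO arrays of Mrto4 read 7.69, 7.52, 7.3999 and 7.43 at 0 h, 7.798, 7.73, 8.09 and 7.92 at 1 h and 9.62, 9.64, 9.67 and 9.71 at 4 h. Het arrays of Mrto4 read 7.85, 7.43, 7.37 and 7.46 at 0 h, 8.14, 7.82, 7.92 and 7.69 at 1 h and 10.14, 10.01, 10.14 and 10.01 at 4 h. No array at 4 h came near the 0 h or 1 h arrays. Changes of Mrto4 at 4 h were 2.11 in PM, 2.15 in KO and 2.55 in het cells (SE 0.12 each, adjusted p = 3.55e-15, 2.64e-15 and 2.63e-17). Rrp15 is a further large subunit factor. PM arrays of Rrp15 read 7.99, 7.82, 7.596 and 8.03 at 0 h, 7.95, 8.09, 7.76 and 8.19 at 1 h and 9.69, 9.63, 9.66 and 9.75 at 4 h. KO arrays of Rrp15 read 7.67, 7.66, 7.67 and 7.69 at 0 h, 7.88, 7.87, 8.04 and 8.14 at 1 h and 9.297, 9.61, 9.46 and 9.95 at 4 h. Het arrays of Rrp15 read 7.67, 7.68, 7.59 and 7.66 at 0 h, 8.06, 7.76, 7.91 and 7.98 at 1 h and 9.91, 9.93, 9.79 and 10.24 at 4 h. Its 4 h arrays likewise stood apart from both earlier times. Changes of Rrp15 at 4 h were 1.83 in PM, 1.91 in KO and 2.32 in het cells (SE 0.12 each, adjusted p = 1.11e-13, 5.41e-14 and 2.34e-16).

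Nip7 binds late precursors of the large subunit RNA. PM arrays of Nip7 read 9.26, 9.12, 9.16 and 8.95 at 0 h, 9.75, 8.91, 9.495 and 9.46 at 1 h and 10.78, 10.54, 10.82 and 10.83 at 4 h. KO arrays of Nip7 read 9.22, 9.15, 9.14 and 9.08 at 0 h, 9.66, 8.94, 9.77 and 9.56 at 1 h and 10.03, 10.51, 10.48 and 10.25 at 4 h. Het arrays of Nip7 read 8.86, 9.23, 9.22 and 9.37 at 0 h, 9.79, 8.86, 9.71 and 9.81 at 1 h and 10.87, 10.81, 10.899 and 11.25 at 4 h. The 1 h arrays overlapped those of 0 h in each genotype and the 4 h arrays did not. Changes of Nip7 at 4 h were 1.62 in PM, 1.17 in KO and 1.79 in het cells (SE 0.19 each, adjusted p = 1.11e-08, 4.62e-06 and 1.01e-09).

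Rrs1, known from yeast to help load a ribonucleoprotein part of the large subunit, was near background. PM arrays of Rrs1 read 4.34, 4.51, 4.22 and 4.395 at 0 h, 4.22, 4.46, 4.35 and 4.42 at 1 h and 5.19, 4.79, 5.56 and 5.56 at 4 h. KO arrays of Rrs1 read 4.36, 4.43, 4.54 and 4.27 at 0 h, 4.42, 4.41, 4.45 and 5.11 at 1 h and 5.03, 4.66, 5.13 and 5.905 at 4 h. Het arrays of Rrs1 read 4.28, 4.45, 4.47 and 4.38 at 0 h, 4.49, 4.49, 4.62 and 4.36 at 1 h and 4.59, 5.16, 5.54 and 5.56 at 4 h. It was detected on 0 of the 12 arrays at 0 h, and on 4 PM, 3 KO and 3 het arrays at 4 h, so it was tested only because of stimulated arrays. The 4 h level was at least 1.36-fold higher in PM, 1.28-fold in KO and 1.33-fold in het cells (adjusted p = 0.000393, 0.00221 and 0.00105), with the bound set by the lowest signal detected on each array. In the authors' processed table the KO change of Rrs1 did not pass (adjusted p = 0.115).

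The remaining large subunit factors rose in all 3 genotypes. Pes1 changed by 2.13 in PM, 2.01 in KO and 2.46 in het cells and its partner Bop1 by 1.53 in PM, 1.49 in KO and 1.76 in het cells. The RNA methyltransferase Nop2 changed by 2.15 in PM, 1.89 in KO and 2.405 in het cells, and a second bright probe for it by 2.30, 2.27 and 2.79, whereas a dim probe at 0.87, 0.77 and 0.88 did not pass. Ebna1bp2 changed by 2.03 in PM, 1.54 in KO and 2.004 in het cells, the GTPases Gnl2 and Gnl3 by 1.75 in PM, 1.48 in KO and 1.92 in het cells and by 1.84 in PM, 1.803 in KO and 2.19 in het cells. Ftsj3, a methyltransferase, changed by 1.59 in PM, 1.39 in KO and 1.65 in het cells, the helicase Ddx18 by 1.12 in PM, 0.98 in KO and 1.45 in het cells and Wdr74 by 1.33 in PM, 1.24 in KO and 1.62 in het cells. Across the list, 15 members had more than 1 detected probe, and of their 19 further probes 17 rose in PM, 14 in KO and 16 in het cells. These probes read the same RNA samples, and the share over all 10961 kept probes is not given here. Some were dim, such as those of Nop2, Nhp2 and Ebna1bp2 detected on 13, 16 and 17 of the 36 arrays.

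**Figure D3:**
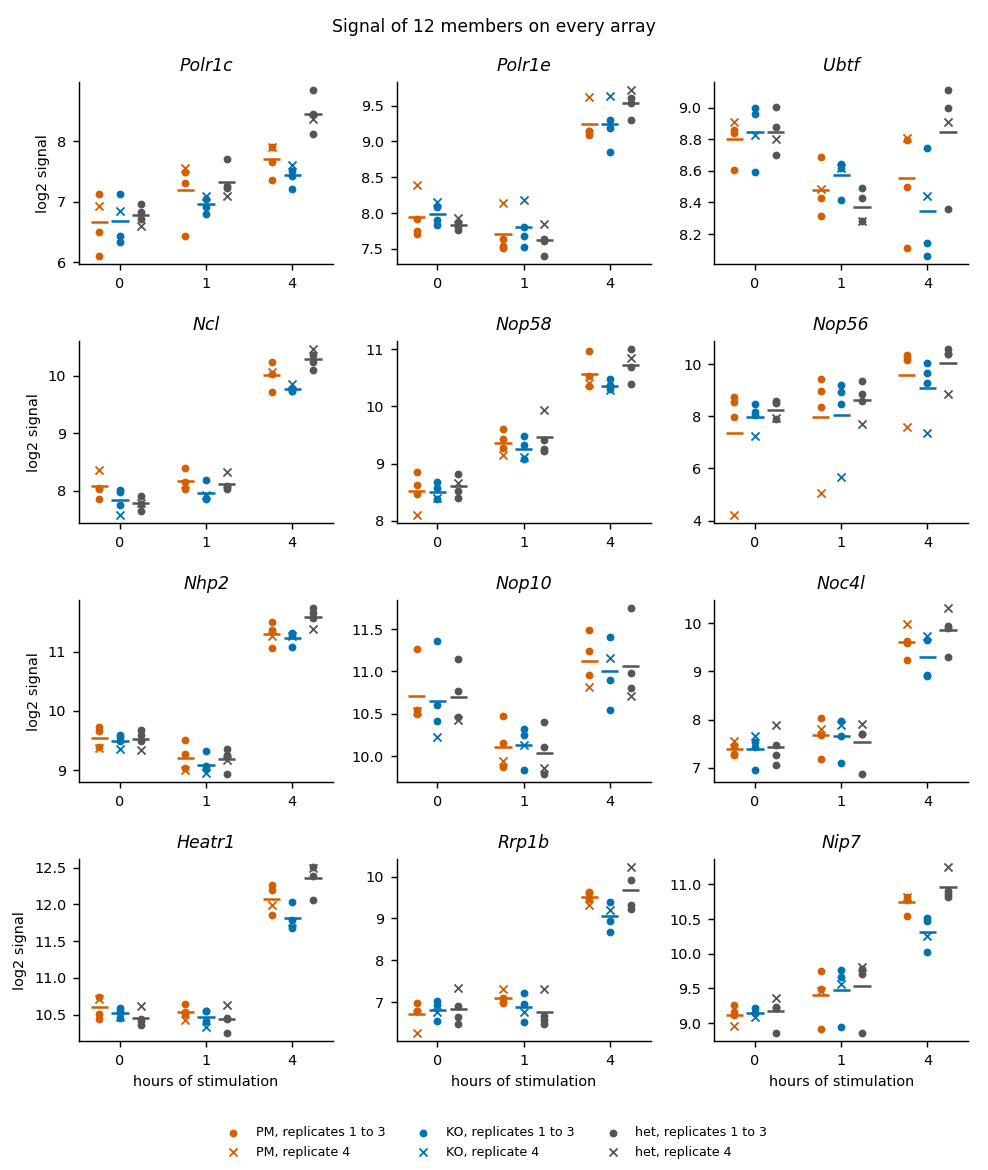
Log2 signal of 12 members on every array at 0, 1 and 4 h, with PM, KO and het cells side by side; crosses are replicate 4, dots the other replicates and bars the group means. Most panels show 4 h arrays clear of the earlier times, and the Nop56 panel shows the crosses below the dots, down to 4.21 in PM cells at 0 h.

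At 1 h fewer members passed than at 4 h, and whether their counts differ from the shares of all genes was not tested. In PM cells 4 of 41 rose and 0 fell, in KO cells 7 rose and 1 fell, and in het cells 8 rose and 3 fell, where 10.3%, 12.4% and 12.7% of all genes rose and 13.1%, 15.7% and 15.5% fell. Nop58, Imp4, Ltv1 and Gnl3 rose in all 3 genotypes. Ltv1, a late small subunit factor linked to nuclear export in yeast, changed by 0.97 in PM, 0.98 in KO and 1.0996 in het cells, the largest 1 h change of the list in each. Gnl3, a GTPase of proliferating cells, changed by 0.73, 0.76 and 0.97, and Nop58 by 0.85, 0.74 and 0.86. Rrp12 and Mrto4 rose in KO and het cells, Tsr1 in KO cells, and Ncl and Nop14 in het cells. Ubtf, Nop10 and Nhp2 fell in het cells by 0.48, 0.66 and 0.34, and Nhp2 fell in KO cells by 0.41. With the mean of a gene's detected probes, Nop10, Nhp2 and Ncl did not pass in het cells (limma, adjusted p = 0.339, 0.278 and 0.153). Nhp2 did not pass in KO cells either (adjusted p = 0.15). The further probes of Nop10 and Nhp2 were dim, detected on 17 and 16 of the 36 arrays. With the replicate number as a block, 8 members passed in PM cells, 5 higher and 3 lower, adding Polr1c upward and Ubtf, Nop10 and Nhp2 downward. The block gave 11 in KO cells, adding Rrp9 and Rrp15 upward and Nop10 downward, and 15 in het cells, adding Polr1c, Rrp9, Tsr1 and Rrp15 upward. Calls over all 7585 genes grew with the block as well. In PM cells 1011 were higher and 1434 lower (782 and 995 without it). In KO cells they were 1254 and 1643 (942 and 1191), and in het cells 1217 and 1635 (960 and 1179).

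These 1 h counts depended on scaling and on single arrays. With arrays scaled to 1 median in place of quantile normalization, 0 members passed in PM, 0 in KO and 1 in het cells, the list medians were -0.17, -0.15 and 0.09 in place of 0.13, 0.16 and 0.18, and the all-gene medians were -0.32, -0.32 and -0.18 in place of -0.08, -0.07 and -0.07. The all-gene split of higher and lower calls then was 186 and 414 in PM (against 782 and 995) and 211 and 576 in KO cells (against 942 and 1191). In het cells 7 members passed without any 1 of the 0 h arrays, 5 without the 1 h array of replicate 1 and 6 without that of replicate 3 or 4. In PM cells 7 passed without the 1 h array of replicate 1, and in KO cells 4 passed without both arrays of replicate 3.

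From 1 h to 4 h most of the list rose. Relative to 1 h, 36 members were higher at 4 h in PM, 35 in KO and 39 in het cells and 0 were lower, where 23.6%, 22.4% and 25.7% of all genes were higher and 24.2%, 22.1% and 27% lower. The median differences were 1.29, 1.11 and 1.39. Nolc1 and Rrs1, detected on 5 and 10 of the 36 arrays and tested only because of stimulated arrays, were not taken out here. These comparisons share their 4 h arrays with the comparisons against 0 h.

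Between genotypes the list did not differ detectably before 4 h. At 0 h and at 1 h, 0 members passed between any pair of genotypes (limma). At an unadjusted p under 0.05 there was 1 member at each time for PM against het and 0 for the other pairs. The share of all genes at that threshold is not given here. For PM against het, KO against het and PM against KO, 0.0791%, 0.0527% and 0.0659% of all genes passed at 0 h and 0.211%, 0.0527% and 0.0132% at 1 h, so these comparisons had few calls in general.

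At 4 h some members were lower in KO than in het cells. Of 41 members 8 were called lower and 0 higher, a share of 19.5%, where 3.59% of all genes were called lower and 5.15% higher. The difference was below 0 for 39 members, with a median of -0.30. The arrays of KO and het cells did not overlap for 11 members, all lower in KO, against 5.64% of all genes. Members called lower included the polymerase subunit Polr1c, at -1.01 (SE 0.22, 95% interval -1.45 to -0.56, adjusted p = 0.00232). Heatr1 of the processome differed by -0.55 (SE 0.12, 95% interval -0.78 to -0.31, adjusted p = 0.00176) and nucleolin by -0.51 (SE 0.13, 95% interval -0.77 to -0.26, adjusted p = 0.00718). On the brightest probe, the KO and het arrays of Polr1c, Heatr1, Ncl, Wdr75, Mrto4 and Nip7 did not overlap at 4 h, and those of Rrp15 and Ubtf did. Heatr1, Ncl and Wdr75 each had a further detected probe, on which the KO and het arrays overlapped. With the mean of a gene's detected probes, Ncl (-0.44, adjusted p = 0.0836) and Wdr75 (-0.29, adjusted p = 0.205) did not pass. Wdr75 differed by -0.38, Mrto4 by -0.42, Nip7 by -0.64, Rrp15 by -0.39 and Ubtf by -0.50 (adjusted p = 0.017, 0.0263, 0.0267, 0.0422 and 0.0432).

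By role, 2 of 4 polymerase members, 1 of 3 abundant nucleolar proteins, 2 of 14 small subunit factors and 3 of 14 large subunit factors were lower in KO cells, and 0 of 3 in each snoRNP core. Of the other ribosome biogenesis genes 13 of 99 were lower, with a median of -0.23, and of the ribosomal protein genes 0 of 55, with a median of 0.048. Other genes with a large rise at 4 h were lower in KO cells as well. Among 714 genes outside the list whose signal rose by at least 1 (log2) on average over the genotypes, chosen on these same arrays, 20.6% were lower in KO cells at 4 h, with a median of -0.33. The share among the 41 members (19.5%) was close to that. Of 9 T cell markers 4 were higher and 1 lower in KO than in het cells at 4 h, 1 of 2 natural killer cell markers was higher, and 0 of 7 B cell and 0 of 8 myeloid markers passed. The part of these markers in the result was not tested.

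The number of members called lower in KO cells moved with the fit. It was 14 with the replicate number as a block (adding Nhp2, Rrp9, Noc4l, Wdr74, Rrp1b and Gnl3), where 657 genes of the whole array were higher and 496 lower. It was 13 without background correction, where 327 were higher and 381 lower, 3 when only the KO and het arrays at 4 h were fitted, and 0 with median scaling, where the list median was -0.46 and 18 genes of the whole array were higher and 55 lower, against 391 and 272. Leaving out 1 array gave 4 without replicate 1 of either genotype and 5 without replicate 3 or 4 of het or replicate 2 of KO cells, and leaving out a replicate number in both gave 2, 3, 2 and 5. Over the 20 alternatives Polr1c was called in 18, Heatr1 in 17, Ncl in 16, Wdr75 in 13, Nip7 in 12, Mrto4 in 10, Rrp15 in 9 and Ubtf in 8.

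Between PM cells and either other genotype, 0 members passed at 4 h (limma). Against het cells this was 0 of 41, where 2.83% of all genes passed. At an unadjusted p under 0.05 there were 7 members, and the share of all genes at that threshold is not given here. The difference was below 0 for 34 of 41 members, with a median of -0.17, and 52.1% of all genes were below 0. Among the 714 other rising genes 74.6% were below 0, with a median of -0.16, so this lean was not particular to the list. Polr1c came nearest to passing, at -0.73 (95% interval -1.18 to -0.29, adjusted p = 0.0672), and it passed with the replicate number as a block (adjusted p = 0.0285). Against KO cells 0 members passed, where 2.81% of all genes did, and 36 of 41 were above 0, with a median of 0.14. Among the 714 other rising genes 19.7% were below 0 in PM against KO, with a median of 0.20. At an unadjusted p under 0.05 there were 5 members, again without the share of all genes. Under median scaling the all-gene split of PM against KO calls was 25 higher and 7 lower, against 104 and 109. The comparisons of PM and of KO with het cells share the het arrays, so their values are given side by side only.

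**Figure D4:**
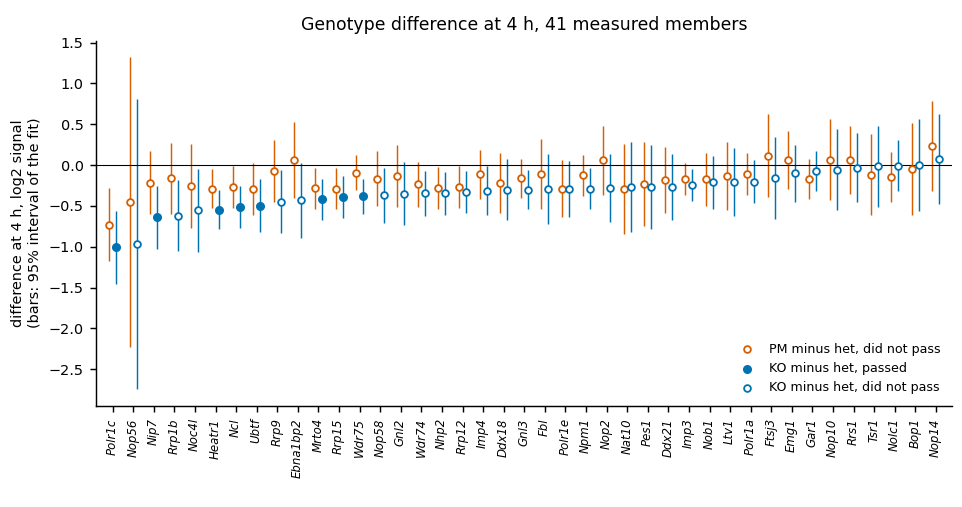
Difference at 4 h from het cells for each measured member (log2 signal), PM minus het left of KO minus het at each gene, ordered by the KO difference; bars are 95% intervals of the fit and filled points passed at an adjusted p under 0.05. The 8 filled points are KO differences from -1.01 to -0.38, and most open points lie below 0.

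The 4 h responses (4 h minus 0 h) of the genotypes were also set against each other. KO minus het was below 0 for 40 of 41 members, with a median of -0.38, and 1 member passed, where 0.712% of all genes passed as lower. Heatr1 passed, with a difference of -0.60 (SE 0.16, adjusted p = 0.043). Its call was kept under 8 of 28 alternatives, with adjusted p from 0.0114 to 0.99991, and of the fits that left out 1 array only those without het 0 h replicate 4, het 4 h replicate 2 or KO 4 h replicate 3 kept it. Among the 714 other rising genes the KO minus het response was below 0 for 83.2%, with a median of -0.36. For PM minus het 0 members passed (0.132% of all genes), with a median of -0.22 and 37 below 0. Among the 714 other rising genes 77.9% were below 0 there, with a median of -0.20. For PM minus KO 0 passed (0.369% of all genes), with a median of 0.13 and 31 above 0. Among the 714 other rising genes 27.6% were below 0 there, with a median of 0.15. The unadjusted p was under 0.05 for 9 members in KO minus het, 6 in PM minus het and 1 in PM minus KO. The shares of all genes at an unadjusted p are not given here, at 4 h or at 1 h, so these counts are not set against the whole array. At 1 h 0 members and 0 genes of the whole array passed in any of the 3 differences of responses, and at an unadjusted p under 0.05 there was 1 member in KO minus het and 0 in the other two.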

How the data were processed

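Mouse T cell RNA was measured on 36 Illumina bead arrays, 4 in each of 9 groups. Groups and replicate numbers come from the sample labels. Per the labels' protocols, RNA was amplified to labelled cRNA with an Ambion MessageAmp kit, and per the submitters' processing notes GenomeStudio 2011.1 was used. The authors deposited raw signal intensities per probe, linear and not normalized per the file headers. Detection p-values per probe and array were deposited beside them by the authors. A processed table of intensities that the authors also deposited, with medians from 3.73 to 3.81 per array, was used as an alternative; how it was scaled is not given in the sources used here. The number of columns left out was 0.

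Background was removed with the normexp model, using detection p-values in place of control beads. Quantile normalization and log2 after adding 16 followed (neqc, limma 3.58.1, statmod 1.5.0, R 4.3.3), which compresses changes of dim probes. Of 25697 probes, 10961 had a detection p-value under 0.01 on at least 4 arrays and were kept; the brightest named probe of each gene gave 7585 genes. The limma model had 9 group means over 36 arrays, leaving 27 residual degrees of freedom, and used moderated variances. Passing meant an adjusted p (Benjamini-Hochberg, all genes of a comparison) under 0.05. The fit was tested on simulated data for KO against het at 4 h. It recovered 34.3% of 1.5-fold, 83.6% of 2-fold and 97% of 4-fold changes, so a missing call does not show that a small change is absent. The simulated noise was independent between arrays and added to normalized values, so the replicate numbers and the normalization were not tested. Alternatives were median scaling, no background correction, the authors' table, other filters on dim probes, the mean of a gene's probes, the replicate number as a block, a fit of only the groups compared, and leaving out arrays.

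The members, the gene lists and the rules were chosen with earlier results of these data known. Values on every array are given for the members with the largest and smallest 4 h change of each role in het cells, for those that did not pass or fell there, and for those that passed between genotypes. Group-centred arrays of the same replicate number correlated above 0.1 in every pair in 6 of 12 comparisons, among them KO against het and PM against het at 4 h, all 3 comparisons of 1 h with 0 h, and het 4 h against 0 h. Their median correlation was positive in all 12 comparisons, from 0.29 to 0.61, and the main fit left the replicate number out. The labels give the replicate numbers, beside a code in the titles that goes with them in all 9 groups, without saying what they share.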

Additional observations from a re-analysis of the deposited data

Results flagged for a closer look

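Single arrays stood apart from the other 3 of their group in 14 of 180 groups examined (19 members and the mean of the list, each in 9 groups), by Dixon's gap ratio at its 95% critical value, which chance exceeds in about 1 in 20 groups. Nop56 accounted for 3 of them, all in replicate 4, at 7.595 in PM cells at 4 h, 8.86 in het cells at 4 h and 4.21 in PM cells at 0 h. Mrto4 stood apart in replicate 1 of PM cells, at 8.13 at 1 h and 9.51 at 4 h. Nip7 did so in replicate 2, at 10.54 in PM cells at 4 h and 8.86 in het cells at 1 h.

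The other such arrays were Polr1e at 9.61 (PM 4 h, replicate 4), Nop10 at 11.27 (PM 0 h, replicate 2), Ubtf at 8.41 (KO 1 h, replicate 1) and Rrs1 at 5.11 (KO 1 h, replicate 4). In het cells they were Ncl at 8.32 (1 h, replicate 4), Nolc1 at 4.65 (1 h, replicate 2) and Emg1 at 8.165 (0 h, replicate 4). All values are log2 signals.

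The 4 h response of Heatr1 differed between KO and het cells by -0.60 (log2) in the test of the difference of responses (limma, adjusted p = 0.043). That call was lost under 20 of 28 alternatives.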

How the results depend on the processing

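The 4 h counts against 0 h held under every alternative tried, within 1.5 times the main count. Leaving out arrays gave 36 to 38 members in PM, 36 to 39 in KO and 36 to 38 in het cells. At 1 h, median scaling left 0 members passing in PM, 0 in KO and 1 in het cells, and the replicate block gave 8 in PM cells; leaving out arrays gave 3 to 7, 4 to 10 and 4 to 11. The 1 h change of Mrto4 in KO cells was -0.038 under median scaling. For KO against het at 4 h, the count was 0 with median scaling, 13 without background correction, 14 with the replicate block, 3 with only the groups compared and 2 to 8 without single arrays or replicates. For PM against het at 4 h it was 1 without background correction, 1 with the replicate block and 0 to 1 without arrays; for PM against KO it was 1 without background correction and 0 to 1 without arrays. For the response of KO against het, the count was 0 with median scaling, 4 without background correction, 2 with the authors' table, 2 with no filter on dim probes, 0 with the mean of probes, 2 with the replicate block, 0 with only the groups compared and 0 to 1 without arrays; for the other 2 differences of responses it was 0 to 0. The causes were not tested. Where the replicate numbers were treated as pairs, the block moved no other count of members by over 1.5 times. Over all genes it gave 250 higher and 111 lower calls for PM against het at 4 h (154 and 61 without it), and 211 and 140 for the response of KO against het (97 and 54). PM against het gave 1 without het 4 h replicate 1, and PM against KO gave 1 without replicate 2. Among values of single members, 4749 kept direction and side of the threshold, 178 no longer passed, 64 newly passed and 1 reversed. Signal over background limited Nolc1 and Rrs1.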
